A study of Mus musculus with 6 samples.

Results

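The brain is wrapped in the meninges, and fibroblasts of the inner layers follow the larger vessels into the tissue. A set of 32 genes known as markers of these cells was examined in bulk RNA sequencing of mouse prefrontal cortex, out of 45470 named lines of the count table, and 30 of the 32 had enough counts to enter a test of 15398 genes. The members were taken by symbol from a given list, which was drawn up with earlier results of these data known, so their common direction is not independent evidence. At postnatal week 8 the study sampled wild type mice (3 libraries) and heterozygous 16p11.2 duplication mice (3 libraries), which carry a gain of the chromosome 7 segment that matches the human interval. The line came from a mixed C57BL/6N and 129Sv background that was then backcrossed to C57BL/6, which both groups share. Tissue was a homogenate, so cells of every type that the dissection took are in each library, and no label gives the sex, litter or dissection day. The labels do not state that the libraries come from different animals, and the spread behind every p-value is that between these samples and may be technical.

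Meningeal fibroblasts lay down collagens and small proteoglycans. Cells of the arachnoid form a transport barrier between cerebrospinal fluid and blood, with cadherin and connexin junctions and carriers for organic anions, amino acids and sulfate. Meningeal fibroblasts are also a source of retinoic acid and of insulin-like growth factor 2 for the cortex below. Over a block of cortex they form a thin cover. In bulk tissue, fewer cells of a type and less RNA per cell cannot be told apart.

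Total gene counts were 12988457 to 14369271 in the wild type libraries and 14891890 to 21872271 in the duplication libraries, and duplication replicate 1 was the deepest. The neuronal gene Snap25, of the synaptic fusion machinery, was at 2437 to 3074 CPM (CPM, counts scaled to 1e+06 per library with TMM factors). It marks neurons in general and does not identify the brain region. As deposited, 65.1% of names in the joint table, those of 16 members among them, stand 1 or more lines away from their counts, and values here follow re-alignment. Before re-alignment, Ptgds held 3 counts over the wild type libraries and Col1a2 held 0, against 3228 and 316 after re-alignment. Ptgds lies 70 lines from a step of the offset, Slc6a20a 89 and Pcolce 195. One offset less or more would leave these 3 genes with 0 to 13 wild type counts.

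All 32 genes had a higher mean CPM in the duplication libraries than in the wild type libraries, and for 18 of them every duplication library lay above every wild type library. None of the 30 tested genes passed when p-values were adjusted over all genes (edgeR quasi-likelihood test, 0 called, against 0% of all tested genes), with adjusted p from 0.163 to 0.91. At an unadjusted p under 0.05, 21 of the 30 were higher and 0 lower. The same threshold was passed as higher by 7.05% and as lower by 12.2% of all tested genes. Groups did not overlap, with duplication higher, for 17 of the 30, against 11.7% of all tested genes. The median log2 fold change was 0.82 for the 30 genes, from 0.09 to 2.59, and 0.01 over all tested genes. It was above 0 for 30 of the 30, against 51% of all tested genes, and above 1 for 13, against 0.208%. Lum, Slc47a1 and Cdh1 met the filter on low counts only with the help of duplication libraries. Without a filter all 32 were tested, all 32 had a positive log2 fold change and the median was 0.83.

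Other tools and library sets gave other counts of adjusted calls, all of them higher in duplication. DESeq2 called 10 of the 30 (0.299% of all genes were called higher) and gave no adjusted p for 2, Lum and Cdh1. EdgeR without a filter called 15 of 32 (0.655%). Without wild type replicate 2, edgeR called 9 of 31 (4.65%), of which 6 were also called by DESeq2. Slc47a1 among the DESeq2 calls and Cdh1 among these 9 entered the tests only with the help of duplication libraries. Their calls are therefore a description. Limma-voom called 0. Leaving out any other single library gave 0 calls. A check of pairing did not settle whether the replicate number pairs the samples. With that number as a block, 1 member passed, Fmod, the matrix proteoglycan fibromodulin (edgeR adjusted p = 0.0438, 0.039% of genes called higher).

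**Figure D1:**
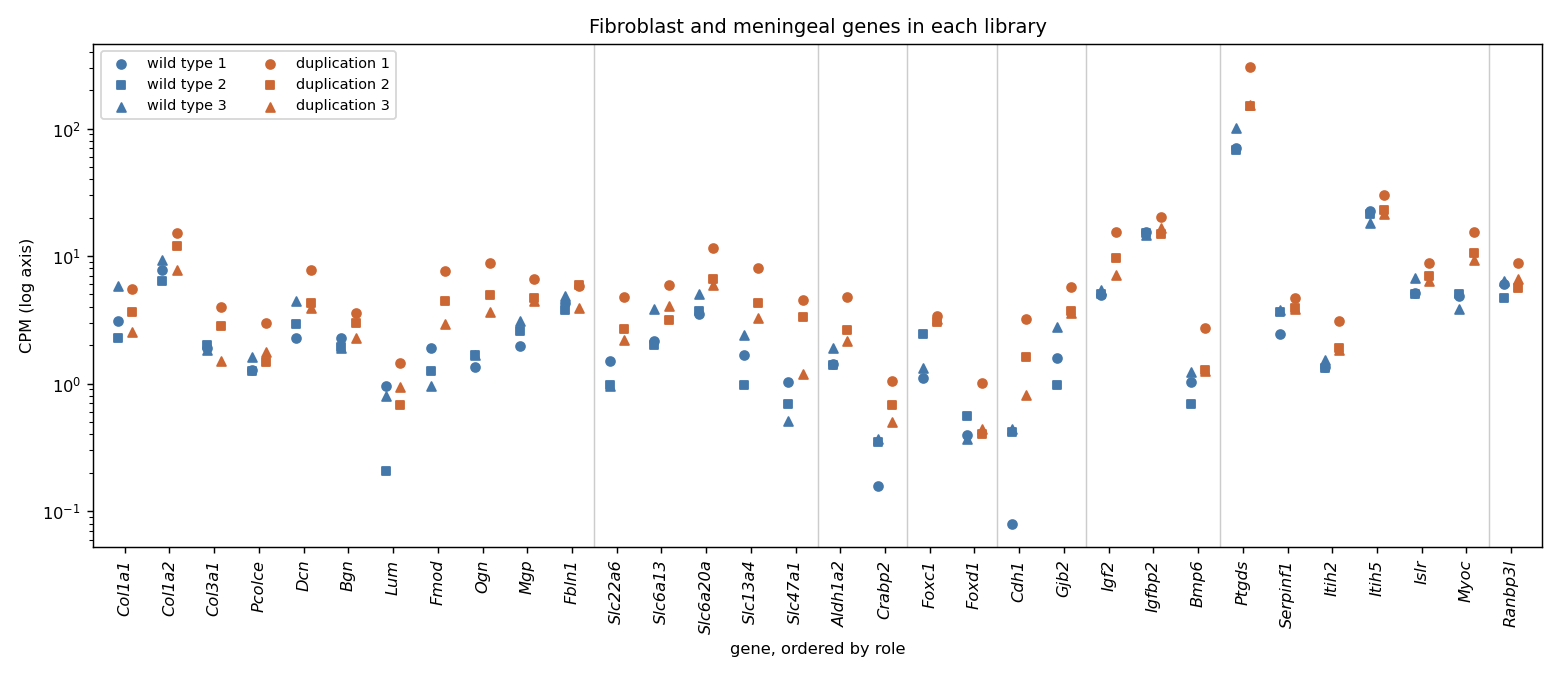
CPM of the 32 genes in each of the 6 libraries on a log axis, with genes grouped by role (vertical lines part the roles: matrix, transporters, retinoid genes, transcription factors, junction proteins, growth factors and their binding protein, other secreted proteins, and Ranbp3l). Each point is 1 library. Duplication replicate 1, the orange circle, is highest for 30 of the 32 genes.

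The promoters of 6 members are shown because they belong to the 5 genes with the largest log2 fold change among those with a promoter entry, and to Ptgds, the most abundant member. Each is 300 bases, 250 before to 50 from the annotated start, read 5′ to 3′ from RefSeq on GRCm38.p6, the assembly that mm10 names. Capitals mark any of 7 motifs searched on both strands: the TATA box (TATAAA), the CCAAT box (CCAAT), the GC box (GGGCGG), a forkhead motif (GTAAACA), the AP-1 motif (TGANTCA), a nuclear receptor motif (AGGTCA) and a T-box motif (AGGTGTGA).

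Ogn, chr13:49607765-49608064, plus strand: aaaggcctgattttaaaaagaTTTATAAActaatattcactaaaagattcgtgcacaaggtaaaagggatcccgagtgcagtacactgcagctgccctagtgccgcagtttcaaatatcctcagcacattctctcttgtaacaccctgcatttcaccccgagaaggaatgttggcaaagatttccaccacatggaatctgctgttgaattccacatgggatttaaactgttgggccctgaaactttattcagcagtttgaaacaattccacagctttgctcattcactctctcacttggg
Fmod, chr1:134037004-134037303, plus strand: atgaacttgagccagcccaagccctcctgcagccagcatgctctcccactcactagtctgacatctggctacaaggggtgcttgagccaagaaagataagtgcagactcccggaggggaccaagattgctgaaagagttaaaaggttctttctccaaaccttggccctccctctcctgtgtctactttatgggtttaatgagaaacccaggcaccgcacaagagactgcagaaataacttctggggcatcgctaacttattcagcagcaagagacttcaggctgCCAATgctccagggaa
Slc13a4, chr6:35308077-35308376, minus strand: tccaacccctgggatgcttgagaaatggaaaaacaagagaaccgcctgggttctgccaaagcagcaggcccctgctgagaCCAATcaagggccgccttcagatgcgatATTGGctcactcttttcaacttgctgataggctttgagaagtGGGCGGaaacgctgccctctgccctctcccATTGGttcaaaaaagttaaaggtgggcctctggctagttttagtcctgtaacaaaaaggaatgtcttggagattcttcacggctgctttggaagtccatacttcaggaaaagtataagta
Slc22a6, chr19:8617746-8618045, plus strand: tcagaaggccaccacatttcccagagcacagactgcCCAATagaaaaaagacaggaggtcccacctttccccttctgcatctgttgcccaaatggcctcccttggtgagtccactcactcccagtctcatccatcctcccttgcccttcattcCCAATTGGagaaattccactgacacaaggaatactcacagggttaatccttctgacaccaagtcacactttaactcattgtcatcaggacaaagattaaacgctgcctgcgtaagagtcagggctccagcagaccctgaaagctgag
Myoc, chr1:162638900-162639199, plus strand: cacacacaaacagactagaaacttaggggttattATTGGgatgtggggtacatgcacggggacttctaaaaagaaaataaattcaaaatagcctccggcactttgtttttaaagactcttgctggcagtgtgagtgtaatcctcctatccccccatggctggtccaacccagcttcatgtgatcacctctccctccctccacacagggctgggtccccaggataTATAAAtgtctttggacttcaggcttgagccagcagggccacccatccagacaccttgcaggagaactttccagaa
Ptgds, chr2:25469700-25469999, minus strand: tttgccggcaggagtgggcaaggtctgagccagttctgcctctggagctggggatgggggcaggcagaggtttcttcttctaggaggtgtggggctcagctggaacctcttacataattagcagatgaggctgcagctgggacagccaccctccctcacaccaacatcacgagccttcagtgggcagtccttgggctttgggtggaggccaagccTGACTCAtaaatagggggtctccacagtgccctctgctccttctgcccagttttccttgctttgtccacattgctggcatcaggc

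A promoter entry was matched for 25 of the 32 members, and Col1a1, Cdh1, Dcn, Lum, Mgp, Slc47a1 and Crabp2 had none. CCAAT was found in 36% of the 25 promoters and in 37.4% of all 32817 promoters, GGGCGG in 48% and 35.6%, TATAAA in 12% and 13.6%, and AGGTCA in 12% and 16.3%. TGANTCA, the AP-1 motif, was found in 8% and 7.8%, with Ptgds and Itih2 as the members. The forkhead motif GTAAACA was found in 0 of 25 and 3.6% of all, and the T-box motif AGGTGTGA in 0 of 25 and 1.3%. CCAAT overlaps itself on the opposite strand in the Slc22a6 promoter, where both matches are within 1 run of capitals. No motif set these promoters apart by its count.

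Of the 5 solute carriers of the arachnoid and pia, Slc47a1, Slc13a4 and Slc22a6 were among the genes with the largest differences. All 5 were higher at an unadjusted p under 0.05, and their log2 fold changes ran from 0.74 to 2.05. Slc47a1 (chr11:61343401-61378345), an exporter of organic cations, was at 1.03, 0.695 and 0.512 CPM in the wild type libraries, replicates 1 to 3 in this order throughout, and at 4.52, 3.31 and 1.20 in the duplication libraries. Its groups did not overlap, and its log2 fold change was 2.05 ± 0.50 (standard error, as for all log2 fold changes; edgeR adjusted p = 0.174). Slc47a1 reached the level of the low-count filter in 2 wild type and 3 duplication libraries, so it too was tested only with the help of duplication libraries. Slc13a4 (chr6:35267957-35308131), a sulfate carrier, had 1.66, 0.973 and 2.41 CPM against 8.03, 4.25 and 3.27. Every duplication library was above the highest wild type one, with a log2 fold change of 1.66 ± 0.40. The organic anion carrier Slc22a6 (chr19:8618039-8628299) was at 1.51, 0.973 and 0.951 CPM against 4.79, 2.70 and 2.20, a log2 fold change of 1.54 ± 0.35, again without overlap.

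The remaining 2 carriers differed less. Slc6a20a (chr9:123634770-123678885), a carrier of proline and related amino acids, was at 3.49, 3.68 and 5.05 CPM in wild type and 11.5, 6.62 and 5.92 in duplication libraries, a log2 fold change of 1.0 ± 0.27. Slc6a13, the GABA and taurine carrier GAT2 of leptomeninges, was at 2.14, 2.01 and 3.88 CPM against 5.88, 3.17 and 4.09. Wild type replicate 3 lay above duplication replicate 2 for this gene, and its log2 fold change was 0.74 ± 0.30.

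The 2 junction genes included the largest ratio of the set. Cdh1 (chr8:106603351-106670246), E-cadherin, had 0.0793, 0.417 and 0.439 CPM in the wild type libraries and 3.19, 1.62 and 0.818 in the duplication libraries, 13 counts against 107 in all. The groups did not overlap and the log2 fold change was 2.59 ± 0.64 with a 95% interval of 1.15 to 4.03. Cdh1 reached the level of the low-count filter in 0 wild type and 3 duplication libraries. It was thus tested only because of the group where it is high, and these values are a description. Gjb2 (chr14:57098600-57104702), the gap junction protein connexin 26, was at 1.59, 0.973 and 2.78 CPM against 5.70, 3.71 and 3.59, a log2 fold change of 1.31 ± 0.34, with no overlap.

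Both belong to a fixed list of 7 arachnoid barrier markers, whose genes outside the set went both ways. Of these 4, 1 was higher and 1 lower at an unadjusted p under 0.05, with a median log2 fold change of -0.01. Cldn11, a claudin of arachnoid tight junctions that oligodendrocytes also make, was at -0.23 ± 0.18, and the factor Klf5 at -0.54 ± 0.21. The peptidase Dpp4 was at 0.37 ± 0.17 and the efflux pump Abcg2, which endothelium also carries, at 0.22 ± 0.09.

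Among 11 matrix genes the small leucine-rich proteoglycans Ogn and Fmod stood well above the collagens. Ogn (chr13:49608046-49624501), osteoglycin, was at 1.35, 1.67 and 1.68 CPM in wild type and 8.90, 4.93 and 3.65 in duplication libraries, and Fmod (chr1:134037254-134048277) at 1.90, 1.25 and 0.951 against 7.66, 4.46 and 2.96. Neither gene overlapped between groups, and both had a log2 fold change of 1.92 (SE 0.35 for Ogn and 0.40 for Fmod; edgeR adjusted p = 0.163 for each). Mgp (chr6:136872435-136875823), matrix Gla protein, an inhibitor of calcification, was at 1.98, 2.57 and 3.07 CPM against 6.61, 4.73 and 4.41, a log2 fold change of 1.06 ± 0.22, also without overlap.

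The fibril-forming collagens and the other proteoglycans overlapped between groups. Col1a1, the first chain of type I collagen, was at 3.09, 2.29 and 5.78 CPM in wild type and 5.47, 3.65 and 2.52 in duplication libraries, and its highest value was in wild type replicate 3. Its log2 fold change of 0.09 ± 0.36 had a 95% interval of -0.73 to 0.91. Col1a2, the partner chain of the same protein, was at 7.77, 6.32 and 9.29 CPM against 15.1, 12.1 and 7.74, a log2 fold change of 0.59 ± 0.24. Duplication replicate 3 thus lay below 2 wild type libraries for both chains. Col3a1, type III collagen, had 0.57 ± 0.33 and Pcolce, which enhances the trimming of procollagen, 0.64 ± 0.31 on the log2 scale. The proteoglycans Dcn, Bgn and Lum (decorin, biglycan and lumican) were at log2 fold changes of 0.75 ± 0.31, 0.54 ± 0.22 and 0.72 ± 0.48, and Fbln1, fibulin of elastic fibres, at 0.28 ± 0.19. Lum had 26 counts in the wild type libraries together, which limits what a test on it can show.

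Ptgds and Myoc led the other secreted proteins. Ptgds (chr2:25466709-25470046), the prostaglandin D synthase that leptomeninges and oligodendrocytes release into cerebrospinal fluid, was at 69.8, 67.7 and 101 CPM in wild type and 305, 149 and 152 in duplication libraries. The groups did not overlap and the log2 fold change was 1.35 ± 0.28 (edgeR adjusted p = 0.163). The oligodendrocyte genes Mog and Mbp were at log2 fold changes of -0.36 ± 0.21 and -0.30 ± 0.18 in the same fit. Myoc (chr1:162639155-162649693), myocilin, was at 4.84, 5.07 and 3.88 CPM against 15.5, 10.5 and 9.26, and had the smallest p of the set (log2 fold change 1.37 ± 0.21, edgeR adjusted p = 0.163). Itih2, a heavy chain that binds hyaluronan, was at 0.73 ± 0.27 without overlap. Serpinf1, the secreted serpin PEDF, was at 0.34 ± 0.19, Itih5, of the same family as Itih2, at 0.28 ± 0.14 and Islr, a leucine-rich secreted protein, at 0.41 ± 0.17.

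The tested growth factor and retinoid genes ran from a log2 fold change of 0.20 to 1.07. Igf2 (chr7:142650766-142666816), the growth factor, was at 4.99, 5.07 and 5.41 CPM in wild type and 15.3, 9.59 and 7.05 in duplication libraries, a log2 fold change of 1.07 ± 0.26 with no overlap. It is the one member on chromosome 7, outside the duplicated segment. Its binding protein gene Igfbp2 was at 15.5, 15.1 and 14.6 CPM against 20.2, 14.9 and 16.6, and its log2 fold change of 0.20 ± 0.12 had an interval of -0.07 to 0.47. Bmp6, a bone morphogenetic protein, was at 0.89 ± 0.39. Aldh1a2 (chr9:71215789-71296243), which makes retinoic acid, had 1.43, 1.39 and 1.90 CPM against 4.74, 2.63 and 2.14, a log2 fold change of 1.05 ± 0.33 with no overlap. Crabp2, which carries retinoic acid to its receptors, was not tested, with 12 counts in the wild type libraries, and had 0.159, 0.347 and 0.366 CPM against 1.05, 0.675 and 0.504.

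Of the transcription factors, Foxc1, a forkhead factor needed for meningeal development, departed from the common order of the libraries. It was at 1.11, 2.43 and 1.32 CPM in wild type and 3.42, 3.04 and 3.21 in duplication libraries, so the 3 duplication libraries were level and all above wild type. Its log2 fold change was 0.98 ± 0.27. Foxd1, a forkhead factor of stromal cells, was not tested, with 18 wild type counts, and overlapped between groups at 0.396, 0.556 and 0.366 CPM against 1.004, 0.405 and 0.441. Ranbp3l was at 0.33 ± 0.19.

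**Figure D2:**
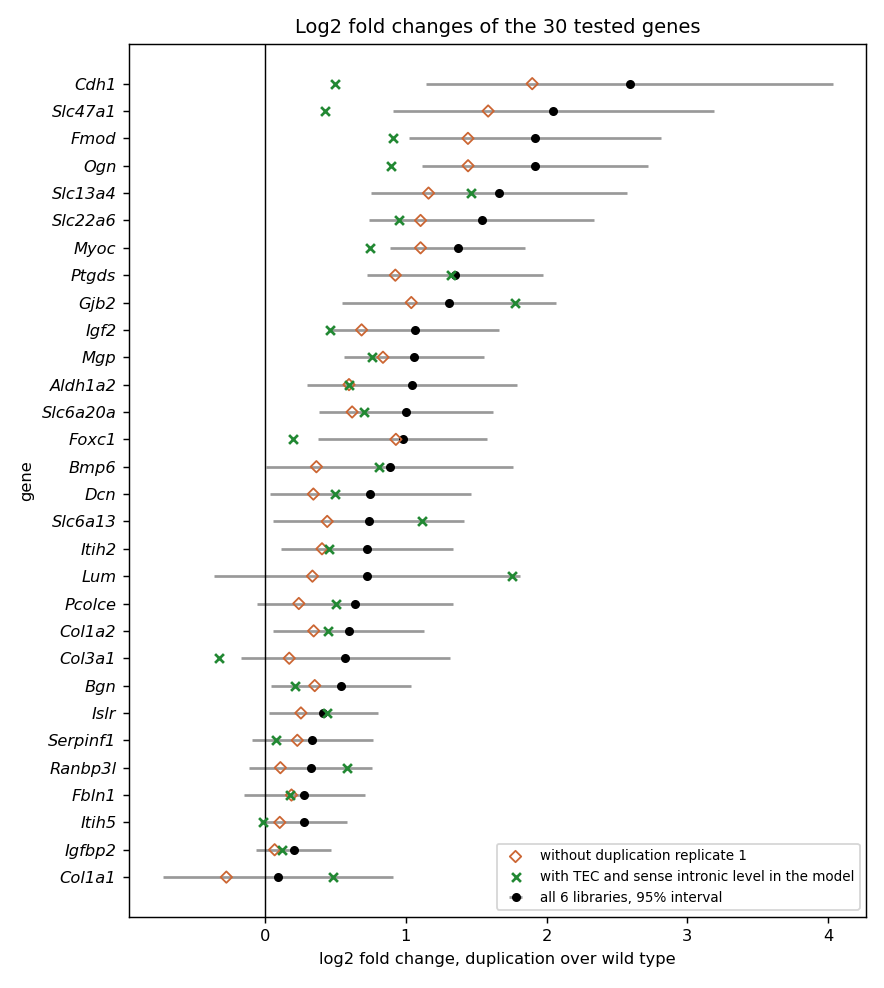
Log2 fold changes, duplication over wild type, of the 30 tested genes with 95% intervals (black), without duplication replicate 1 (open diamonds) and in a model that also holds the mean of 290 TEC and sense intronic transcripts (green crosses). Black points run from 0.09 for Col1a1 to 2.59 for Cdh1, and most diamonds lie closer to 0.

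Duplication replicate 1 carried the largest share of the difference. It was the highest of the 6 libraries for 28 of the 30 tested genes, against 20.8% of all tested genes, with Col1a1 highest in wild type replicate 3 and Fbln1 in duplication replicate 2 as the exceptions. It exceeded the mean of duplication replicates 2 and 3 for all 32 members, by 1.10-fold for Foxc1 up to 2.62-fold for Cdh1, against 50.1% of all tested genes. The median of this ratio was 1.79 over the 30 tested genes and 1.0 over all. Relative to the wild type mean the median fold of the 30 genes was 2.28 in duplication replicate 1, 1.51 in replicate 2 and 1.36 in replicate 3, and 0.966, 0.909 and 1.16 in the wild type libraries. Of the 30 genes, 27 lay above the wild type mean in duplication replicate 2 and 26 in replicate 3.

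Without duplication replicate 1 the difference was smaller and kept its direction for 29 of 30 genes. The median log2 fold change was 0.42, against 0.82 with all 6 libraries. At an unadjusted p under 0.05, 14 of 30 were higher (edgeR, 3.22% of all tested genes higher) and 0 lower. Ogn was then at 1.44, Fmod at 1.44, Slc47a1 at 1.59, Cdh1 at 1.90, Myoc at 1.11 and Ptgds at 0.93, while Col1a1 was at -0.27 and did not pass. Summed over the 32 genes, the level was 177, 170 and 219 CPM in wild type and 537, 307 and 289 in duplication libraries. Without Ptgds, which made up much of that sum, it was 107, 102 and 118 against 233, 158 and 137. Neither sum overlapped between groups.

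Per kilobase of annotated exon, Ptgds was far above the other members, at 48.1 CPM per kilobase in wild type, followed by Igfbp2 at 8.15, Itih5 at 2.62, Myoc at 2.22 and Mgp at 2.14. At the other end were Cdh1 at 0.068 and Foxd1 at 0.087. Of the genes with the largest log2 fold changes, Slc47a1 was at 0.22, Slc22a6 at 0.287 and Fmod at 0.414 on this scale. The abundant Igfbp2 and Itih5 had among the smallest log2 fold changes. Lengths are of all annotated exons, so a gene with long unused exons reads low.

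Exonic bases were shared with another annotated gene by several members, whose values are uncertain. Bases shared on the same strand are ambiguous under any strand setting of the counts. For those shared with the opposite strand, no source used here gives that setting. Igf2 shares 3596 bases with Gm49394 on its own strand and 98 with Igf2os on the other. With opposite-strand genes, Slc6a20a shares 607 bases, Bmp6 224 (Txndc5) and Myoc 93 (Myocos). On the same strand, Islr shares 181 bases with Islr2 and Col3a1 141 with Gm47302. Pcolce shares 112 with Fbxo24 on its strand and 112 with Gm36266 on the other.

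Related genes outside the set had smaller median log2 fold changes. Members and lists were chosen with earlier results of these data known, so this contrast is a description and not independent evidence. Of 47 tested genes of leptomeningeal and perivascular fibroblasts that are not members, 15 were higher and 1 lower at an unadjusted p under 0.05 (7.05% and 12.2% of all genes), with a median log2 fold change of 0.19. Tbx18, a T-box factor of mural cells and meninges, was at 1.27 ± 0.32, Nbl1, a BMP antagonist, at 0.56 ± 0.09, Igfbp6 at 0.37 ± 0.12 and Vtn, vitronectin, which pericytes make, at 0.28 ± 0.09. None of the 47 passed over all genes (edgeR).

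In the other pathway lists, the counts leave out members. Of 23 collagen and collagen-processing genes 1 was higher, Col8a2 at 0.97 ± 0.33, and 2 lower, Col6a1 at -0.55 ± 0.10 and Col12a1 at -0.63 ± 0.26, with a median of 0.02. Of 4 other small leucine-rich proteoglycans 0 passed at that threshold, with Prelp at 0.47 ± 0.26 and Ecm2 at 0.34 ± 0.17. Of 15 retinoid genes 1 was higher, the retinol transporter Stra6 at 0.82 ± 0.31, and 1 lower, the receptor Rxra at -0.20 ± 0.08. Of 9 insulin-like growth factor genes 2 were higher and 3 lower, the latter the receptors Igf1r at -0.56 ± 0.17, Insr at -0.36 ± 0.11 and Igf2r at -0.25 ± 0.10. Of 23 BMP pathway genes 5 were higher and 2 lower, with Bmp5 at 1.39 ± 0.50 and the target genes Id3 and Id2 at 0.49 ± 0.11 and 0.22 ± 0.07.

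Markers of other cells that share the surface or the vessel wall were examined on the same scale. Choroid plexus, which also expresses several of the carriers, was close to absent: Ttr, its dominant transcript, had 10 counts in the wild type and 11 in the duplication libraries, Folr1 4 and 7, and 14 of its 17 markers had under 50 counts over all libraries, with Calml4 at 0. The whole list summed to 198 to 226 CPM in wild type and 223 to 269 in duplication libraries, and 2 of the 17 were tested, of which 1 was higher at an unadjusted p under 0.05. Of ependymal genes, Foxj1 had 53 counts in wild type and 54 in duplication libraries (log2 fold change -0.34 ± 0.27), Ccdc153 had 1 and 2, and Tmem212 was at 0. Of the 7 ependymal genes 4 were tested, with 3 positive values, a median of 0.28 and 0 at an unadjusted p under 0.05 (edgeR). Of 7 tested smooth muscle genes 0 passed at an unadjusted p under 0.05, with Acta2 at 0.24 ± 0.32, Myh11 at 0.08 ± 0.19 and Tagln at 0.16 ± 0.40. Their summed level was 22.9 to 24.2 CPM in wild type and 22.1 to 30.3 in duplication libraries, the highest in duplication replicate 1.

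A fixed list of 8 leptomeningeal fibroblast markers, 7 of them members, had a median log2 fold change of 0.66. At an unadjusted p under 0.05 (edgeR), 4 of 8 were higher, against 7.05% of all tested genes. Groups did not overlap for 1 of 8, a count near the share of 11.7% among all tested genes. The level of this list in wild type replicate 3 lay above that in duplication replicate 3.

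Some perivascular and meningeal macrophage genes were higher along with the set. Mrc1, the mannose receptor, was at 0.82 ± 0.20 with no overlap, 2 of the 4 tested genes of 8 were higher at an unadjusted p under 0.05, and the list summed to 14.2 to 14.8 CPM against 15.3 to 20.1, while Cd163 was at -0.01 ± 0.36 and Lyve1 had 17 and 35 counts. Of 8 pericyte genes 1 was higher and all 8 had a positive value (median 0.21, summed 158 to 173 against 172 to 199 CPM), among them Kcnj8 at 0.33 ± 0.22. Of all tested genes, 7.05% were higher at an unadjusted p under 0.05 (edgeR) and 51% had a positive value. A count of 1 in a list of 8 is close to the former share. The endothelial genes Cldn5, Pecam1 and Flt1 were at 0.21 ± 0.09, 0.04 ± 0.16 and -0.01 ± 0.11. Astrocyte genes had a median of 0.13, with 2 of 9 higher, and microglia genes one of 0.10, with 1 of 8 higher. Pdgfra, shared by fibroblasts and oligodendrocyte precursors, was at 0.06 ± 0.07.

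**Figure D3:**
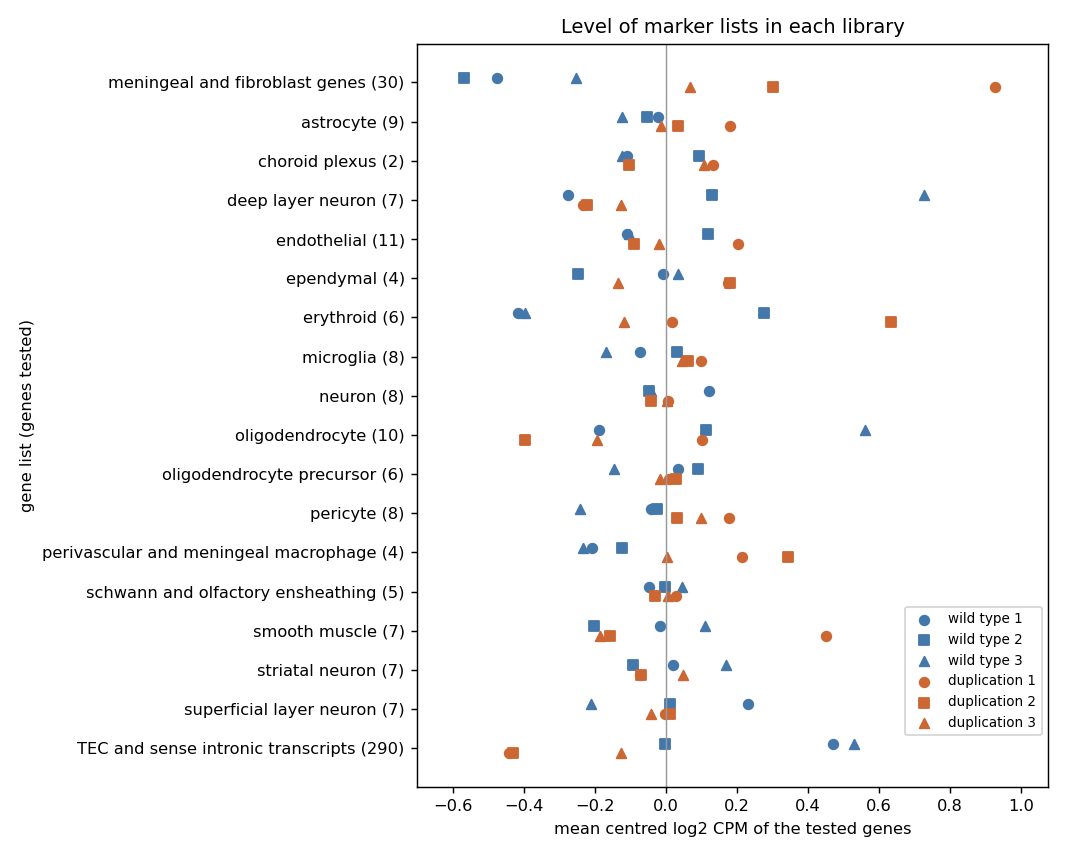
Mean of centred log2 CPM over the tested genes of each list in each library (the average of the 6 libraries is 0), with the number of genes tested in brackets. The meningeal and fibroblast genes run from -0.57 to -0.25 in wild type and from 0.07 to 0.93 in duplication libraries. That gap between groups is wider than for any other list of cell markers plotted, but the set was chosen with earlier results known. The leptomeningeal fibroblast and arachnoid barrier lists, which share genes with the set, are not plotted.

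The list level, the mean of log2 CPM around each gene's average, gives the order of the libraries. For the 30 genes it was -0.48, -0.57 and -0.25 in the wild type libraries (replicates 1 to 3) and 0.93, 0.30 and 0.07 in the duplication libraries. Deep layer neuron genes lay at -0.28, 0.13 and 0.73 and at -0.23, -0.22 and -0.13 in the same order, and oligodendrocyte genes at -0.19, 0.11 and 0.56 and at 0.10, -0.40 and -0.19. Both were highest in wild type replicate 3, the wild type library with the highest fibroblast level. Superficial layer neuron genes lay at 0.23, 0.01 and -0.21 and at 0.00, 0.01 and -0.04, and erythroid genes at -0.42, 0.28 and -0.40 and at 0.02, 0.63 and -0.12. None of these 4 lists ordered the libraries as the fibroblast genes did.

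Other lists did place every duplication library above every wild type library. Astrocyte genes lay at -0.02, -0.05 and -0.12 in wild type and 0.18, 0.03 and -0.01 in duplication libraries, and microglia genes at -0.07, 0.03 and -0.17 and at 0.10, 0.06 and 0.05, both with duplication replicate 1 highest and replicate 3 lowest of the 3, as for the fibroblast genes. Pericyte genes lay at -0.04, -0.02 and -0.24 and at 0.18, 0.03 and 0.10, and macrophage genes at -0.21, -0.12 and -0.23 and at 0.21, 0.35 and 0.00. The arachnoid barrier list, with 3 members among its 7 genes, lay at -0.48, -0.46 and -0.14 and at 0.71, 0.34 and 0.03. The part of these and the other cell types in the difference was not tested.

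Transcripts of the annotation classes TEC (clusters of unspliced tags that await experimental support) and sense intronic, 290 in number, differed between groups in the direction opposite to the set. Their level was 0.47, 0.00 and 0.53 in the wild type libraries and -0.44, -0.43 and -0.13 in the duplication libraries. Within wild type, this level and that of the set were both highest in replicate 3 and lowest in replicate 2. Among the duplication libraries their orders were opposite. When the model held the TEC and sense intronic level too (3 residual degrees of freedom), the 30 genes had a median log2 fold change of 0.50. In that fit, chosen after earlier results were seen, 1 gene, Gjb2, was higher at an unadjusted p under 0.05 (edgeR, 1.51% of all genes higher), and 28 of 30 values were positive, all but Col3a1 and Itih5. That level had a correlation of -0.86 with genotype over the 6 libraries, so the model separates them poorly.

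The members varied together over the libraries to different degrees. Each tested gene's correlation (Pearson r over the 6 libraries, a description that the difference between groups enters) with the mean of the other 29 ran from 0.51 for Col1a1 and 0.63 for Lum to 0.99 for Aldh1a2 and Slc6a20a. Among genes outside the set, those most like its mean level were Htr7, a serotonin receptor (r = 0.99), Isyna1, an enzyme of inositol synthesis (0.99), Fam180a (0.99) and Cd36, a fatty acid receptor (0.99). D330045A20Rik, Bche, Hfe, Npffr1, Scfd2 and Pam16 followed at 0.98. Of these 10, Fam180a had the largest log2 fold change, 1.25 ± 0.39, followed by Bche, butyrylcholinesterase, at 0.79 ± 0.25, and Scfd2 the smallest, 0.11 ± 0.07.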

How the data were processed

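Per the labels' protocols, Trizol RNA went into TruSeq stranded total RNA libraries after Ribo-Zero depletion. The authors used cutadapt, TopHat2 and HTSeq on mm10, per the submitters' processing notes; no source used here states versions, annotation or strand setting. Raw counts per gene were deposited by the authors as a joint table and as single-library tables, whose 274806 values were all equal to the joint ones. The joint table has 45807 lines and 45801 names. Names were moved by the offset of their stretch of lines, which rises in steps from 0 to 6. In 6 of 7 stretches the offset used gave the highest correlation of log counts with whether a name is protein-coding. The other stretch gave no correlation at any offset, so its offset was not checked. Names within 25 lines of a step and 25 names turned into serial numbers were left out, so 337 lines with 0.909% to 0.954% of counts were unnamed and entered neither library sizes nor tests. Of used names, 91.8% were found in GENCODE M21, which gave positions, classes and exon lengths. Every per-sample column was used.

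The genotypes were tested in edgeR 4.0.16 under R 4.3.3 (TMM factors, filterByExpr by group, quasi-likelihood F-test, Benjamini-Hochberg adjustment over all tested genes, threshold 0.05). The common dispersion had a square root of 0.0951. Errors of fold changes are standard errors. For log2 CPM the prior count was 2. DESeq2 1.42.0 and limma 3.58.1 were alternatives, besides other factors and filters, leaving out each library, and the replicate number as a block. Whether samples of the same number pair was not settled: correlations of their deviations from group means were 0.10, 0.06 and 0.31. Wild type replicates 1 and 3, though not 2, correlated best with the duplication library of their own number. On counts simulated for 15158 genes of this comparison, the test found 58.2% of 98 genes with a 1.5-fold change and 91.7% of 96 with a 2-fold change, and made 6 calls among unchanged genes. The simulation gave every gene the common dispersion, so these shares need not hold for genes with a larger spread between libraries, as in the real counts. Reads carry no molecular identifiers, so PCR copies are counted as molecules.

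The members and lists were chosen with earlier results of these data known. Named genes are every member, up to 4 non-members of each pathway list with the smallest p under 0.05 or else the 2 most abundant, the first 3 markers of each cell type, and the 10 genes most like the members; not all are printed. Others named beside these were chosen after their values were seen.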

Additional observations from a re-analysis of the deposited data

How the results depend on the processing

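No library labels give separate animals, sex or litter, and 3 libraries per group limit every test. Counts were low for Lum, Cdh1, Crabp2 and Foxd1. The number of members passing over all genes was 0 with RLE, upper-quartile and library-size scaling, limma-voom, a filter of 30 counts in 3 libraries, unnamed lines kept in library sizes and 200 lines left out around each step. It was 15 with no filter and 10 with DESeq2, and from 0 to 9 when 1 library was left out, the 9 without wild type replicate 2. The cause was not tested. Leaving out 1 library gave 14 to 23 members higher and 0 lower at an unadjusted p under 0.05, and a median log2 fold change of 0.42 to 1.09.

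With the replicate number as a block, 1 member passed over all genes. Deviations of samples with the same number correlated at 0.10, 0.06 and 0.31, which does not settle pairing, and the numbers were not taken to pair the samples.

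With the names as deposited, run for the list's count and median only, 24 members were tested, 0 passed and the median was 0.35, since many names then sit on other genes. With the TEC and sense intronic level as a covariate, chosen after the data were seen, 1 member was higher at an unadjusted p under 0.05, and the log2 fold change was -0.33 for Col3a1 and -0.012 for Itih5. Col1a1 ranged from -0.27 to 0.57 when 1 library was left out, with -0.27 without duplication replicate 1, -0.02 without wild type replicate 1 and -0.17 without wild type replicate 2. Every other member kept a positive value under each alternative in which it was tested one by one.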
